A study of Rattus norvegicus with 9 samples.

Results

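Gene expression was compared between brain cortex of rats at a simulated altitude of 7 km (3 arrays) and cortex of rats at sea level (3 arrays), 6 of the 9 arrays of the series. Groups were taken from the sample titles. The comparison covered 6656 of 22523 probes, those whose detection p-value was under 0.05 on at least 3 of the 9 arrays. Detection p-values rank a probe among the negative control beads of its array. The other 3 arrays hold cortex of rats at a simulated 3 km, which entered only the estimate of the spread and are given as values beside the others. The 7 km and 3 km animals are called hypoxic in the series text and the sea level animals normoxic. The labels give no strain, age, length of exposure or dissection, and they do not say whether replicates came from separate animals, so p-values measure only the spread between these samples. Precision is limited by how few arrays there were.

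When oxygen falls, prolyl hydroxylases no longer mark the HIF transcription factors for destruction. The stabilised factors bind short RCGTG elements and raise genes for glucose uptake, glycolysis, lactate export and vessel growth. Oligodendrocytes make the myelin sheath, which is rich in cholesterol that the brain must synthesise for itself. Both sterol synthesis and fatty acid desaturation consume molecular oxygen.

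One array stood apart before any gene was considered. Sea level replicate 3 had Spearman correlations of 0.642 to 0.660 with the other 8 arrays, which correlated at 0.969 to 0.978 among themselves. It held the highest or lowest normalised level of the 9 arrays at 75.2% of the tested probes, against 10.8 to 27.0% for the others. It detected 8170 probes and the others 5881 to 6621. Calls and gene lists are therefore given with all 9 arrays and, normalised and fitted anew on 6499 probes, with the 8 arrays that leave it out. Single genes are described mainly with 8 arrays, with the 9-array value beside most of them. The cortex markers Nrgn, Gad1, Slc17a7, Slc1a2 and Mbp were detected on 9 of 9 arrays, Neurod6 on 4 and Camk2a on 3.

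The background correction decided how large the differences of dim probes appeared. The main correction, neqc of limma, took the spread of the negative controls from the detection p-values and found 382 to 570 signal units on 8 arrays against 14.96 on sea level replicate 3. Some negative controls of the 8 arrays were as bright as 7980 to 11643 units, against 279 on replicate 3. After neqc the lowest value was 139 to 207 on the 8 arrays, which pulled dim probes towards one level. A second correction, the central background, was added after the data had been seen. It reads the centre of the negative controls at their median and their spread from the point 1 SD above it in a normal distribution, and so ignores their bright tail. Deposited signals are printed below beside the fitted values. They are not normalised between arrays, whose median signals ran from 121 to 204, so that groups can overlap in the signals and not after normalisation, or the reverse.

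**Figure D1:**
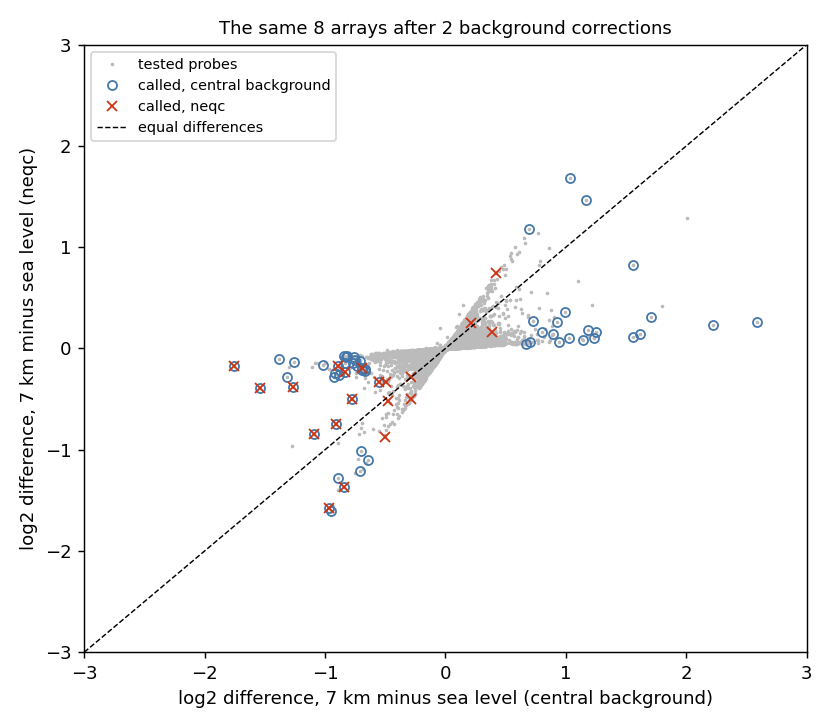
Log2 difference between 7 km and sea level for 6499 probes on the same 8 arrays, after the central background (x axis) and after neqc (y axis). Blue circles are the 58 probes called with the central background and red crosses the 20 called with neqc. Many circles lie along the line of no difference on the y axis, which is where dim probes fall after neqc.

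With 9 arrays, limma called 8 of 6656 probes at an adjusted p-value below 0.05 (0.120%), 1 higher (0.0150%) and 7 lower (0.105%) at 7 km. With 8 arrays it called 20 of 6499 (0.308%), 3 higher (0.0462%) and 17 lower (0.262%), and 7 of the 8 were among these 20. With the central background and 8 arrays it called 58 probes (0.892%), 22 higher (0.339%) and 36 lower (0.554%), of which 12 were among the 20. The same correction with 9 arrays called 11 probes (0.165%), 6 higher and 5 lower. At an unadjusted p-value below 0.05 there were 757 probes (11.4%) with 9 arrays, 815 (12.5%) with 8 and 858 (13.2%) with 8 and the central background. The 7 km arrays lay wholly above the sea level arrays at 815 probes (12.2%) and wholly below them at 829 (12.5%) with 9 arrays. With 8 arrays these counts were 1059 (16.3%) and 1049 (16.1%).

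The counts of calls rested on single arrays of all 3 groups. The 58 calls of the central background became 0 when sea level replicate 1 was left out and 3 when replicate 2 was left out, each of which leaves 1 sea level array whose spread is taken from the other groups. The 8 calls of the 9-array neqc fit became 0 without any 1 of the 7 km arrays, without 3 km replicate 1 or 2, or without sea level replicate 2, and 2 without 3 km replicate 3. The 20 calls of the 8-array neqc fit became 10 without 3 km replicate 3, 6 without 7 km replicate 2, 2 without sea level replicate 1 and 0 without any other single array. The main genes below are therefore given with their signal on each compared array. The detection filter also bears on some calls: of the 51 genes with a symbol called with 8 arrays and the central background, 7 reached 3 detected arrays only with the group in which they were higher (Slc16a3, Bcat1, Sult1a1, Tagln2, Dhcr7, Fdps and Prkcq), as did 202 of 4748 genes tested. These 7 had to differ to be tested, and their values are a description.

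Most tested HIF target genes were higher at 7 km, and Angpt2 and Stc1 passed the test with 8 arrays and the central background, as did Slc16a3, one of the 7 genes above. Of 35 HIF target genes listed, 18 were tested with 8 arrays. Of these, 16 were higher and 2 lower, and the 7 km arrays lay wholly above the sea level arrays for 14, against 16.3% of all probes. The 18 include Slc16a3, which had to differ to be tested. The median log2 difference of the list was 0.34 with the central background and 0.13 with neqc, against medians of 0.00 over all probes tested. In the fit with the central background Angpt2 and Stc1 passed the test in the higher direction, for which 0.339% of all probes passed. Slc16a3 passed too, but it had to differ to be tested, so its call is a description. No member passed in the lower direction. With 9 arrays and neqc, 15 of 18 members were higher, 8 lay wholly above, against 12.2% of all probes, and 1, Stc1, passed (0.0150% of all probes passed in this direction).

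Stc1 encodes stanniocalcin 1, a secreted glycoprotein that acts on calcium and phosphate handling. Its signals were 629, 473 and 599 on the 7 km arrays, 592, 517 and 388 on the 3 km arrays and 222, 211 and 214 on the sea level arrays. All 7 km and 3 km signals exceeded all 3 sea level signals. The log2 difference was 0.44 ± 0.05 (SE) with 9 arrays (limma adjusted p = 0.0494), 0.31 ± 0.04 with 8 arrays (adjusted p = 0.0781) and 1.71 ± 0.17 with the central background and 8 arrays (adjusted p = 0.00608). Stc1 was the only probe called higher in the 9-array neqc fit.

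Angpt2 encodes angiopoietin 2, an endothelial ligand of the Tie2 receptor that loosens vessels during remodelling. It gave 434, 332 and 489 at 7 km, 329, 557 and 266 at 3 km and 125, 106 and 202 at sea level. All 7 km and 3 km arrays detected it and none at sea level did, so its 7 km level was at least 2.54-fold higher (8 arrays, central background, limma adjusted p = 0.00914). Slc16a3, the lactate exporter MCT4, gave 280, 293 and 296 at 7 km, 272, 295 and 208 at 3 km and 156, 158 and 209 at sea level. None of the sea level arrays detected it, and its 7 km level was at least 1.55-fold higher. It was tested only because the 7 km arrays detected it, so its p-value is no support. Angpt2 did not pass after neqc, with adjusted p-values of 0.177 with 9 arrays and 0.184 with 8.

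Vegfa, the main endothelial growth factor, did not pass. Its signals were 319, 293 and 262 at 7 km and 211, 208 and 258 at sea level. These signals did not overlap, but the normalised levels of 9 arrays did. The log2 difference with the central background and 8 arrays was 0.50 ± 0.15, with a limma adjusted p of 0.21. The transcript of HIF-1α itself, Hif1a, gave 304, 212 and 288 at 7 km and 303, 257 and 286 at sea level, with overlap, and a difference of -0.39 ± 0.21 that did not pass (adjusted p = 0.457). Epas1 and Hmox1 were each detected only on sea level replicate 3, and the glucose transporter Slc2a1 and the protease inhibitor Tfpi2 on 0 of 9 arrays, so these 4 were not tested.

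Glycolytic genes were mostly a little higher at 7 km. Of 24 listed, 17 were tested with 8 arrays, 13 were higher and 10 lay wholly above sea level, against 16.3% of all probes. The 17 include the lactate exporter Slc16a3, which had to differ to be tested. Their median log2 difference was 0.16 with the central background and 0.15 with neqc. With 9 arrays and neqc 15 of 17 were higher, 7 lay wholly above, against 12.2% of all probes, and the median was 0.16. Only Pfkl and Slc16a3 passed the test, both higher with 8 arrays and the central background (0.339% of all probes). Slc16a3 is 1 of the 7 genes that had to differ, so its call is a description. Pfkl, the liver-type subunit of phosphofructokinase, gave 531, 447 and 504 at 7 km, 580, 698 and 499 at 3 km and 360, 239 and 222 at sea level. All 7 km values were above all sea level values, and the difference was 0.80 ± 0.15 (limma adjusted p = 0.0475) with 8 arrays and the central background, and 0.26 ± 0.05 with 9 arrays and neqc (adjusted p = 0.166). Ldha, which makes lactate from pyruvate, gave 1615, 1866 and 1762 at 7 km and 1297, 1033 and 1039 at sea level. Its difference of 0.49 ± 0.14 did not pass (adjusted p = 0.19; 0.414 with 9 arrays and neqc), nor did that of Gpi, 0.44 ± 0.11 (adjusted p = 0.12). Gapdh, Aldoc, Pfkp and Tpi1 differed by 0.13 to 0.23 with standard errors of 0.10 to 0.14.

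Mitochondrial genes went mostly the other way by small amounts. Of 27 tested genes of respiratory complex I, 21 were lower, 13 lay wholly below sea level, against 16.1% of all probes, and the median was -0.18 with 8 arrays and the central background. Of 21 genes of pyruvate dehydrogenase and the TCA cycle, 19 were lower, 9 lay wholly below sea level and the median was -0.21. With 9 arrays and neqc 23 of the 27 and 20 of the 21 were lower, 13 and 6 lay wholly below (12.5% of all probes), the medians were -0.37 and -0.24, and none passed. In each fit 1 of the 27 was tested only through the group in which it was higher. None of these 48 passed with the central background in limma, and 5 of the complex I genes (all lower) and 6 of the others (1 higher, 5 lower) had an unadjusted p below 0.05, as did 13.2% of all probes. Pdhx, the E3-binding component of pyruvate dehydrogenase, passed in the 8-array neqc fit, at -0.28 ± 0.03 (limma adjusted p = 0.0422), and not with 9 arrays (adjusted p = 0.41). Its signals were 1120, 935 and 1029 at 7 km and 1199, 1048 and 1029 at sea level, so the groups overlapped before normalisation.

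**Figure D2:**
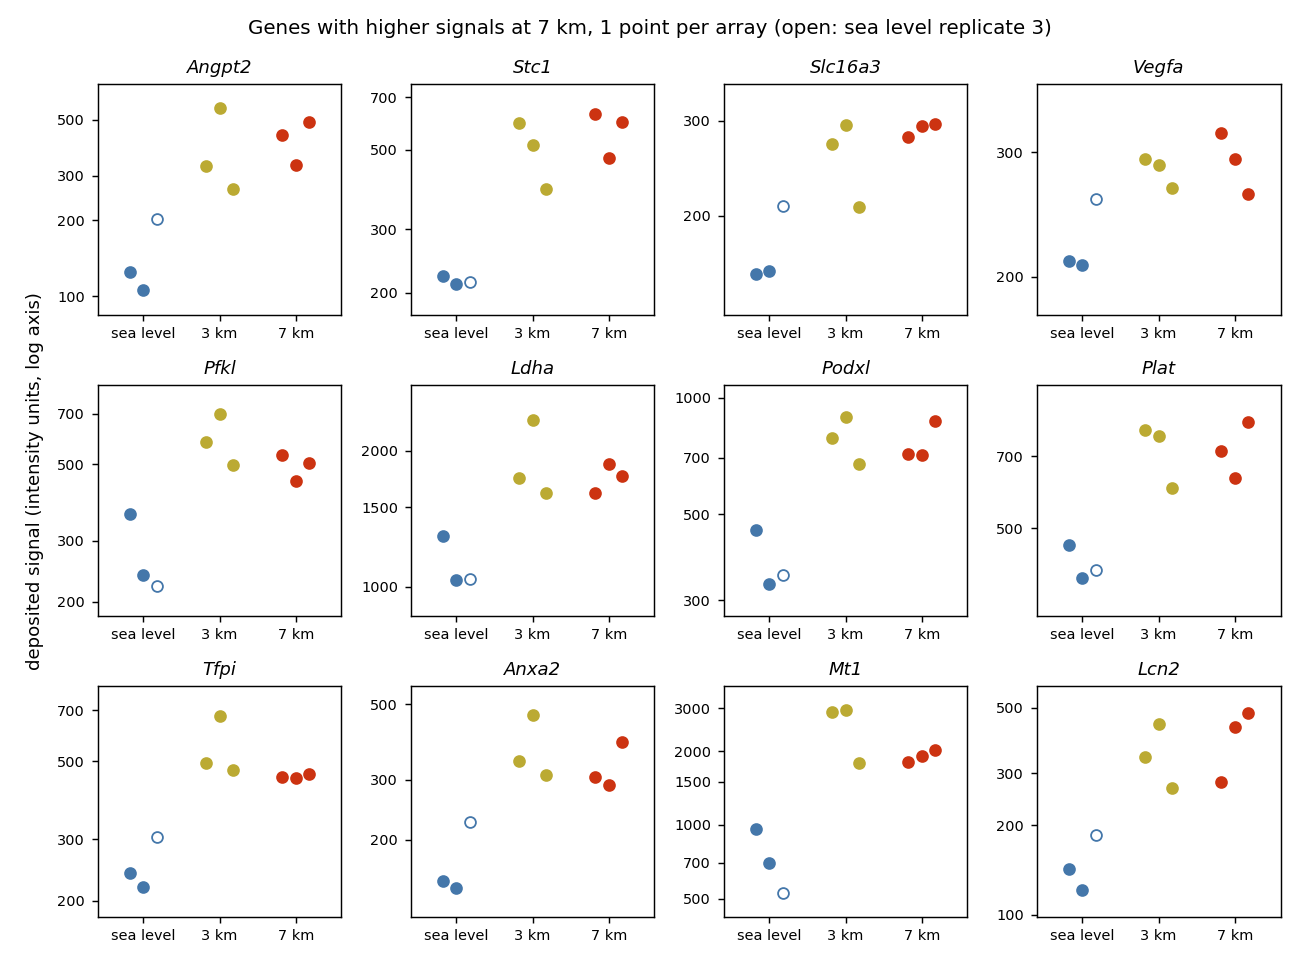
Deposited signals (intensity, log axis) of 12 genes on every array, by group. Filled points are arrays, and the open point is sea level replicate 3. The 7 km points lie above the filled sea level points in every panel, and for Vegfa the lowest 7 km signal, 262, is close to the open point at 258.

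Several genes of the vessel wall, of clotting and of fibrinolysis were higher at 7 km, while other endothelial genes were lower. Podxl, the sialomucin podocalyxin on the luminal side of endothelium, gave 716, 712 and 868 at 7 km, 789, 893 and 674 at 3 km and 456, 331 and 349 at sea level. Its 7 km and sea level groups did not overlap, and its difference was 0.99 ± 0.14 with the central background and 8 arrays (limma adjusted p = 0.0166), and 0.42 ± 0.06 with 9 arrays and neqc (adjusted p = 0.0821). Plat, tissue plasminogen activator, gave 719, 633 and 821 at 7 km, 791, 771 and 604 at 3 km and 463, 396 and 412 at sea level. Its difference was 0.72 ± 0.13 (adjusted p = 0.0367), and 0.27 ± 0.07 with 9 arrays and neqc (adjusted p = 0.281). Anxa2, a surface receptor for plasminogen and its activator, gave 305, 290 and 388 at 7 km and 152, 145 and 226 at sea level. It was not detected on sea level replicates 1 and 2 and was at least 1.82-fold higher at 7 km than on these (adjusted p = 0.0113). With all 9 arrays and the same correction its adjusted p was 0.133.

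Tfpi, the inhibitor of the tissue factor pathway, gave signals of 451, 447 and 459 at 7 km, 496, 674 and 472 at 3 km and 240, 219 and 304 at sea level. With the central background its difference was 1.18 ± 0.14 (limma adjusted p = 0.00977) with 8 arrays and 0.87 ± 0.26 (adjusted p = 0.414) with 9. The authors' deposited table of processed values gives this probe -55.8, -62.3 and -51.2 at 7 km and -50.3, -36.1 and 22.2 at sea level, but 274 to 391 at 3 km. The deposited tables thus contradict each other for Tfpi at 7 km and sea level, as they do on 3 or more arrays for 117 of 6426 tested probes (1.82%). Of the other genes named here Gapdh was among these 117, on 9 of 9 arrays. Tissue factor itself, F3, differed by 0.11 ± 0.18 (adjusted p = 0.80).

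Itm2a went the opposite way. It encodes a small membrane protein that is abundant in brain endothelium, and it gave 308, 268 and 336 at 7 km, 396, 393 and 423 at 3 km and 635, 591 and 452 at sea level. The 3 groups lay in separate ranges, in the order of altitude. Itm2a was called in every one of the 4 fits named above, with differences of -0.50 ± 0.05 (9 arrays, limma adjusted p = 0.0307), -0.39 ± 0.04 (8 arrays, adjusted p = 0.0356), -1.55 ± 0.19 (9 arrays, central background, adjusted p = 0.0394) and -1.54 ± 0.19 (8 arrays, central background, adjusted p = 0.00988). Emcn, the endothelial mucin endomucin, gave 213, 295 and 306 at 7 km and 414, 358 and 335 at sea level, a difference of -0.999 ± 0.290 that did not pass (adjusted p = 0.20). Abcg2, an efflux pump of the blood-brain barrier, gave 185, 189 and 214 at 7 km, 258, 219 and 194 at 3 km and 420, 364 and 402 at sea level. It was detected only on the 3 sea level arrays, so that it was tested with 9 arrays alone, and only because sea level was high. It was at least 2.76-fold lower at 7 km with the central background, which is a description and no test.

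Of the 20 endothelial markers listed, 9 were tested with 8 arrays. Of these 5 lay wholly above and 2 wholly below sea level, against 16.3% and 16.1% of all probes. With 9 arrays these counts were 2 and 2, against 12.2% and 12.5% of all probes. The summed level of the 9 was 6838 to 9679 on the 7 km arrays, 6828 to 9072 on the 3 km arrays and 6068 to 6461 on the 2 sea level arrays. Vwf, the von Willebrand factor of endothelium, gave 2703, 3098 and 4011 at 7 km and 2167, 1622 and 333 at sea level and did not pass (limma adjusted p = 0.20 with 8 arrays and the central background). In whole cortex, fewer cells of a type and less RNA per cell cannot be told apart, and the part of vessel content in the differences above was not tested.

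The promoters of 2 of the raised genes are shown because they carry the short core that HIF binds, ACGTG or GCGTG, searched on both strands. The sequences are the 250 bases before the gene's start in RefSeq (build GRCr8), read 5′ to 3′ on the gene's strand, with the matches in capitals. Pfkl lies on the plus strand at chr20:10663715-10663964 and Podxl on the minus strand at chr4:61149132-61149381.
Pfkl: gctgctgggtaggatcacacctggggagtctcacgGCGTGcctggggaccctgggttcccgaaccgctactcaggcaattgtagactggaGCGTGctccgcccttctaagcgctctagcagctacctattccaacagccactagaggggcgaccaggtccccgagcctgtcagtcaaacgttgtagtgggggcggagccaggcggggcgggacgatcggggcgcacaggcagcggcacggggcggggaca
Podxl: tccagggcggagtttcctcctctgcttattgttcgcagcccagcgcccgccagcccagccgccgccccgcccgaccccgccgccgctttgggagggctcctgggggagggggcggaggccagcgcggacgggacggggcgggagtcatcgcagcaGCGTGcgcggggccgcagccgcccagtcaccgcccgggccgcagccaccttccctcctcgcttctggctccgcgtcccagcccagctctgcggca

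Pfkl holds 2 matches and Podxl 1, while the promoter of the HIF target Slc16a3 holds 0. Such a match is common: 37.9% of 27457 RefSeq promoters of this length and 55.8% of the 3943 promoters of tested genes hold at least 1. Among genes called with the central background and 8 arrays, 7 of 16 matched promoters of higher genes (43.8%) and 18 of 24 of lower genes (75.0%) held one. A match is a description of the letters and not a binding site.

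Mt1, Lcn2, Itih3 and Upp1 were also called higher at 7 km with 8 arrays and the central background. Mt1 encodes metallothionein 1, which binds zinc and copper and is raised by metals, glucocorticoids and oxidative stress. Its signals were 1809, 1910 and 2016 at 7 km, 2888, 2950 and 1784 at 3 km and 967, 700 and 528 at sea level. Every 7 km and 3 km value exceeded every sea level value. The difference was 1.48 ± 0.19 with 9 arrays (limma adjusted p = 0.0507), 1.46 ± 0.24 with 8 arrays (adjusted p = 0.107) and 1.17 ± 0.15 with the central background and 8 arrays (adjusted p = 0.0113). The brain metallothionein Mt3 differed by -0.03 ± 0.13.

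The Mt1 promoter is shown for its metal response elements, which the zinc-sensing factor MTF-1 binds in mouse. The core searched was TGCACNC or TGCGCNC on both strands, marked in capitals in the 250 bases before the gene's start (RefSeq, GRCr8, minus strand, chr19:10832976-10833225).
Mt1: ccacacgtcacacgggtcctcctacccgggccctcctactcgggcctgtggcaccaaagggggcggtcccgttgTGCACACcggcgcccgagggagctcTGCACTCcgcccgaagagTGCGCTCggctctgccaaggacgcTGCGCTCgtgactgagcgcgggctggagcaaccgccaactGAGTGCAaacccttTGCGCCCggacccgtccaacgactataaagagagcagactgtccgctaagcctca
It holds 6 matches. As many are found in 6 of 27457 promoters (0.0219%), and at least 1 in 21.2%. Of the promoters of tested genes 31.6% hold at least 1. Among genes called with the central background and 8 arrays, 3 of 16 higher (18.8%) and 4 of 24 lower (16.7%) did.

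Lcn2, the iron-siderophore carrier lipocalin 2, gave 280, 429 and 481 at 7 km, 340, 440 and 268 at 3 km and 142, 121 and 186 at sea level. No array at sea level detected it, and it was at least 2.31-fold higher at 7 km (limma adjusted p = 0.0166 with 8 arrays and 0.0544 with 9, central background). Itih3, a hyaluronan-binding inter-alpha-trypsin inhibitor chain, gave 4296, 3988 and 3752 at 7 km and 2021, 1600 and 1913 at sea level. This bright probe differed by 1.20 ± 0.37 with 9 arrays and neqc (adjusted p = 0.374). It differed by 1.68 ± 0.26 after neqc (adjusted p = 0.0974) and 1.03 ± 0.17 with the central background (adjusted p = 0.0263), both with 8 arrays. Upp1, the uridine phosphorylase that salvages pyrimidines, gave 919, 1206 and 1223 at 7 km, 1371, 1541 and 878 at 3 km and 480, 329 and 297 at sea level, a difference of 1.56 ± 0.22 with 8 arrays (adjusted p = 0.0143), which also passed with 9 (adjusted p = 0.0469), both with the central background. These 3 genes had no overlap between 7 km and sea level on any array.

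Genes tied to glucocorticoid signalling went both ways. Hsd11b1, which regenerates active glucocorticoid in cells, gave 2292, 2439 and 2336 at 7 km and 1508, 1218 and 1287 at sea level. Its difference was 0.70 ± 0.13 with 8 arrays (limma adjusted p = 0.0493, central background) and 0.50 ± 0.20 with 9 (adjusted p = 0.414). Of 16 genes listed as responsive to glucocorticoid, 10 were tested with 8 arrays, and 4 lay wholly above and 4 wholly below sea level, against 16.3% and 16.1% of all probes. With the central background Lcn2 and Mt1 passed, both higher (0.339% of all probes). Sult1a1 passed too, but it had to differ to be tested, so its call is a description. With 9 arrays 2 members of the list lay wholly above and 3 wholly below, against 12.2% and 12.5% of all probes. Sult1a1, a sulfotransferase, was detected on sea level replicate 3 only among sea level arrays, at 275 against 249, 260 and 246 at 7 km, and was called without that array alone. Fkbp5 differed by 0.52 ± 0.14, Klf9 by -0.60 ± 0.14 and Sgk1 by -0.49 ± 0.23, and none of these passed.

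Of the microglial complement genes, C1qc gave 380, 440 and 440 at 7 km, 501, 597 and 425 at 3 km and 278, 213 and 269 at sea level. It passed at 0.89 ± 0.16 with 8 arrays and the central background (limma adjusted p = 0.043) and in neither neqc fit. C1qb differed by 0.64 ± 0.15 (adjusted p = 0.10) and C1qa by 0.30 ± 0.16 (adjusted p = 0.46), while Aif1, the microglial marker Iba1, differed by -0.35 ± 0.16 (adjusted p = 0.38). The levels of the 8 tested microglial genes of 16 listed were summed after the central background. With 8 arrays the sum was 4002 to 4574 at 7 km, 4248 to 4634 at 3 km and 3511 to 3543 on the 2 sea level arrays. With 9 arrays the groups overlapped, at 3757 to 4296 at 7 km and 3293 to 4360 at sea level.

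Genes of cholesterol synthesis were lower at 7 km. Of 26 listed, 11 were tested with 8 arrays. All 11 were lower and 8 lay wholly below sea level, against 16.1% of all probes. Dhcr7 and Fdps were tested only through the arrays on which they were higher, and are among these 8. With 9 arrays and neqc 12 of 13 were lower and 9 lay wholly below, against 12.5% of all probes. In that fit 4 of the 13 were tested only through the group in which they were higher. With 8 arrays the median difference was -0.83 with the central background and -0.14 with neqc. With the central background Acat2, Sqle and Fdft1 passed in the lower direction, for which 0.554% of all probes passed. Dhcr7 and Fdps passed too, but both had to differ to be tested, so their calls are a description. With 8 arrays and neqc 3 passed, Acat2, Sqle and Fdft1, all lower (0.262% of all probes). With 9 arrays 2 of 13 tested passed, Sqle and Fdft1, both lower (0.105% of all probes). The summed level of the 11 was 5083 to 5340 at 7 km, 5338 to 5490 at 3 km and 7145 to 7230 at sea level (8 arrays, central background). Dhcr7 and Fdps are part of this sum and of the medians, so both are a description. With 9 arrays and the same correction the 13 tested summed to 4948 to 5193 at 7 km. That sum was 5194 to 5335 at 3 km and 6268 to 7052 at sea level.

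Sqle, squalene epoxidase, the first oxygen-using step of the pathway, gave 320, 303 and 314 at 7 km, 392, 422 and 345 at 3 km and 461, 420 and 379 at sea level. Every 7 km value lay below every sea level and 3 km value. It was called in all 4 fits, at -0.26 ± 0.03 (9 arrays, limma adjusted p = 0.0458), -0.17 ± 0.02 (8 arrays, adjusted p = 0.0249), -0.96 ± 0.12 (9 arrays, central background, adjusted p = 0.0394) and -0.89 ± 0.10 (8 arrays, central background, adjusted p = 0.00977).

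Fdft1, squalene synthase, just upstream, gave 405, 414 and 357 at 7 km, 600, 576 and 469 at 3 km and 602, 511 and 431 at sea level, again without overlap. It passed with 9 arrays (-0.31 ± 0.04, limma adjusted p = 0.0458), with 8 (-0.23 ± 0.03, adjusted p = 0.0422) and with 8 and the central background (-0.83 ± 0.13, adjusted p = 0.0225). Acat2, which makes the acetoacetyl-CoA that feeds the pathway, gave 770, 758 and 694 at 7 km, 889, 1005 and 792 at 3 km and 1237, 1142 and 937 at sea level. It passed with 8 arrays (-0.75 ± 0.06, adjusted p = 0.0237) and at 9 arrays had an adjusted p of 0.0507. Dhcr7, which makes cholesterol from its last precursor, gave 221, 178 and 226 at 7 km and 347, 302 and 239 at sea level. It was detected on no 7 km array and was at least 1.89-fold lower there (8 arrays, central background), a description for the reason given above.

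Fdps, farnesyl diphosphate synthase, gave 212, 204 and 204 at 7 km and 267, 258 and 220 at sea level, at least 1.40-fold lower at 7 km (8 arrays, central background), likewise a description. Its groups overlapped once replicate 3 was included in the normalisation. Mvd and Nsdhl, further steps of the pathway, lay wholly below sea level after normalisation without passing, at -0.86 ± 0.19 (adjusted p = 0.093) and -0.55 ± 0.12 (adjusted p = 0.085). Msmo1, Scap and Stard4 overlapped between the groups, with differences of -0.13 ± 0.12, -0.04 ± 0.12 and -0.35 ± 0.26. Of the fatty acid genes, Scd, the stearoyl-CoA desaturase, gave 256, 273 and 298 at 7 km and 434, 373 and 306 at sea level and passed at -1.01 ± 0.19 (adjusted p = 0.0482), but not with 9 arrays and neqc (-0.20 ± 0.04, adjusted p = 0.14). Srebf1, whose product drives lipid synthesis genes, differed by -0.17 ± 0.12, and Acly by -0.12 ± 0.14, and neither passed.

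The Acat2 promoter is shown as that of a lower gene that also holds the HIF core, in capitals as above (RefSeq, GRCr8, plus strand, chr1:50100590-50100839).
Acat2: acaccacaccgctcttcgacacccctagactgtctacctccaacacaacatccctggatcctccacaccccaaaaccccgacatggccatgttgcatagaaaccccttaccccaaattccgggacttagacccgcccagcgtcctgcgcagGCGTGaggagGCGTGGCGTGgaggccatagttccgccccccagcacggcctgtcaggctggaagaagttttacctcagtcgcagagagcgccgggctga
It holds 3 matches, and 6.57% of all promoters hold as many. Of the sterol genes tested, 7 of 8 matched promoters hold at least 1 (87.5%), against 55.8% of the promoters of all tested genes.

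Myelin and oligodendrocyte genes were lower at 7 km. Of 32 listed, 20 were tested with 8 arrays. Of these 18 were lower and 14 lay wholly below sea level, against 16.1% of all probes. The median difference was -0.60 with the central background and -0.30 with neqc. The central background gave 6 that passed, against 0.554% of all probes: Ugt8, Ppp1r14a, Mog, Gpr37, Qdpr and Car2. With 8 arrays and neqc 2 passed, Ppp1r14a and Omg, both lower (0.262% of all probes). With 9 arrays none of 20 did, although 18 were lower and the median was -0.50. In that fit 13 had an unadjusted limma p below 0.05, against 11.4% of all probes.

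**Figure D3:**
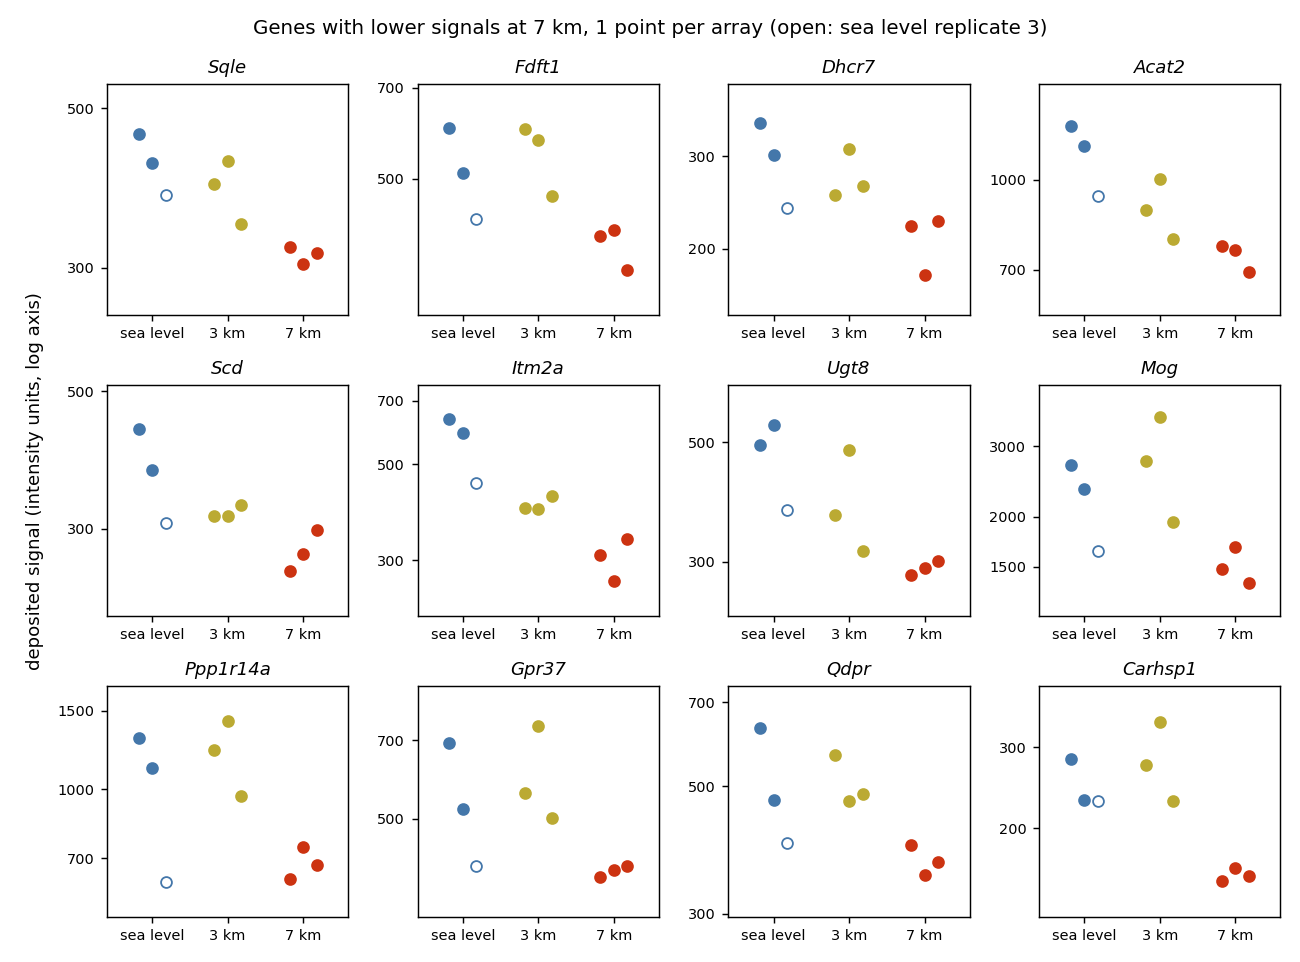
Deposited signals (intensity, log axis) of 12 genes on every array, by group, with sea level replicate 3 as the open point. The 7 km points lie below both filled sea level points in every panel, while the open point falls close to or among the 7 km values for Ppp1r14a, Gpr37, Mog and Qdpr.

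Ugt8, the galactosyltransferase that makes the main myelin lipid, gave 283, 292 and 301 at 7 km, 366, 484 and 314 at 3 km and 493, 538 and 374 at sea level. Its groups did not overlap and its difference was -1.32 ± 0.18 with 8 arrays (limma adjusted p = 0.0141) and -1.28 ± 0.18 with 9 (adjusted p = 0.0544), both with the central background. Mog, the myelin oligodendrocyte glycoprotein of the outer sheath, gave 1480, 1675 and 1365 at 7 km, 2747, 3536 and 1940 at 3 km and 2689, 2348 and 1640 at sea level. The lowest sea level signal lay inside the 7 km range before normalisation, and the difference was -1.55 ± 0.23 with 9 arrays (adjusted p = 0.0764) and -0.95 ± 0.17 with 8 arrays and the central background (adjusted p = 0.0376). Ppp1r14a, an inhibitor of myosin phosphatase that mature oligodendrocytes express, gave 628, 742 and 677 at 7 km, 1225, 1422 and 967 at 3 km and 1305, 1116 and 620 at sea level. It passed with 8 arrays at -0.85 ± 0.07 (adjusted p = 0.0237), while the signal of sea level replicate 3 lay below all 7 km signals.

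Gpr37, a receptor that restrains oligodendrocyte differentiation in mouse, gave 389, 400 and 408 at 7 km and 692, 522 and 407 at sea level (-0.93 ± 0.14, limma adjusted p = 0.0222 with 8 arrays and the central background, and 0.0962 with 9 and neqc). Qdpr, dihydropteridine reductase, gave 396, 351 and 369 at 7 km and 631, 474 and 398 at sea level (-0.92 ± 0.15, adjusted p = 0.0289, and 0.0821 with 9 and neqc). In both genes the signal of sea level replicate 3 was near the highest 7 km signal. Omg, a myelin glycoprotein that binds the Nogo receptor, gave 2069, 1952 and 2040 at 7 km, 2617, 2856 and 2187 at 3 km and 2682, 2413 and 2073 at sea level. It passed after neqc with 8 arrays at -0.88 ± 0.06 (adjusted p = 0.0215) and not with the central background (-0.50 ± 0.10, adjusted p = 0.0511).

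Other genes of the list did not pass. Mbp differed by -0.27 ± 0.11 and Mobp by -0.33 ± 0.20 with 8 arrays and the central background, and Cnp and Mal by -0.89 ± 0.20 and -0.75 ± 0.18. The limma adjusted p-values of Cnp and Mal were 0.088 and 0.11, and with 9 arrays and neqc 0.319 and 0.178. The lineage factors Olig1 and Sox10 differed by -0.46 ± 0.14 and -0.39 ± 0.12, with adjusted p-values of 0.22 and 0.23. Ermn and Aspa differed by 0.00 ± 0.11 and -0.12 ± 0.14, and Cryab, a small heat shock protein also made by oligodendrocytes, was higher by 0.52 ± 0.16 without passing (adjusted p = 0.21). Of the 4 tested precursor genes, Vcan passed at -0.83 ± 0.13 (limma adjusted p = 0.0222), in the lower direction (0.554% of all probes). Cspg4 differed by -0.24 ± 0.16, Cspg5 by 0.00 ± 0.17 and Pdgfra by 0.32 ± 0.15.

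Markers of tissue next to the cortex varied among the same arrays. The summed level of the 20 myelin genes was 18881 to 24840 at 7 km, 26577 to 30868 at 3 km and 32223 to 33927 on sea level replicates 1 and 2. The summed level of 10 tested striatal genes of 12 listed was 6153 to 19854 at 7 km, 17494 to 24444 at 3 km and 6460 to 12608 at sea level, and that of 7 meningeal genes of 12 was 7880 to 15593, 9441 to 11860 and 11295 to 11677. Ttr, the defining transcript of choroid plexus, was detected only on the sea level arrays, at 410, 208 and 2716 against 105 to 112 at 7 km. The share of white matter, striatum, meninges and choroid plexus in each sample was not given, and its part in the myelin and sterol differences was not tested.

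**Figure D4:**
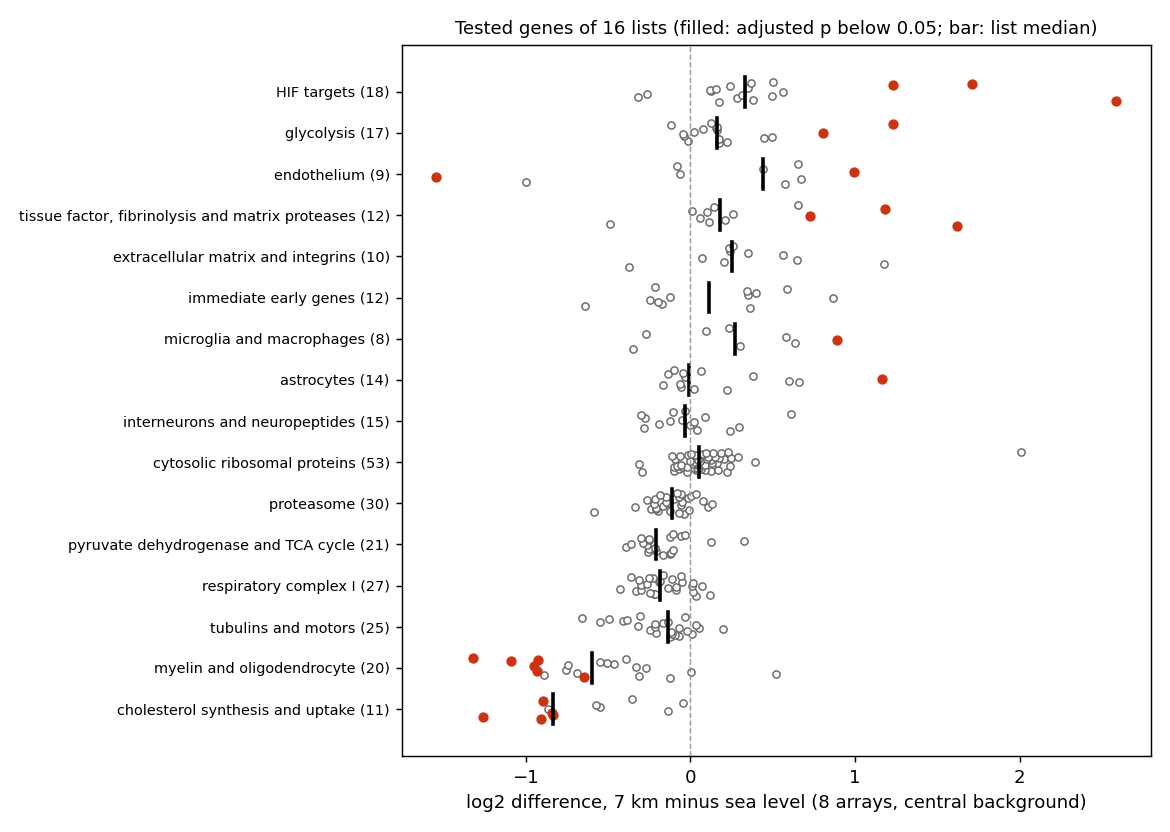
Log2 differences between 7 km and sea level (8 arrays, central background) of the tested genes in 16 lists, with the number tested in brackets. Filled points passed the test and black bars are list medians, which run from 0.44 for endothelium to -0.83 for cholesterol synthesis.

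Neuronal lists held no calls, and single neuronal genes outside them were lower. None of the 6 excitatory and 15 interneuron and neuropeptide genes tested with 8 arrays passed, and their medians were -0.21 and -0.03 with the central background. All 6 excitatory genes were lower, and 1 of them lay wholly below sea level, against 16.1% of all probes. With 9 arrays and neqc all 7 tested excitatory genes were lower, with a median of -0.10. Of these, 1 of the 6 and 2 of the 7 were tested only through sea level, the group in which they were higher. They had to be lower to be tested, so these counts are a description. At an unadjusted limma p below 0.05 the numbers of excitatory and interneuron genes were 2 and 0, against 11.4 to 13.2% of all probes depending on the fit. Of 25 tubulin and motor genes 21 were lower and 11 lay wholly below sea level, against 16.1% of all probes. With 9 arrays and neqc 20 were lower and 8 lay wholly below, against 12.5% of all probes. In each fit 1 of the 25 was tested only through the group in which it was higher. Tubb3, the neuronal tubulin, gave 835, 652 and 759 at 7 km and 966, 840 and 371 at sea level, and passed only with 8 arrays and neqc (-0.33 ± 0.04, limma adjusted p = 0.0422). Scg3, secretogranin III of dense-core vesicles, passed with neqc at -0.50 ± 0.04 with 9 arrays (adjusted p = 0.0307) and -0.50 ± 0.05 with 8 (adjusted p = 0.0278). Its signals were 1843, 1697 and 1853 at 7 km and 2161, 1817 and 1308 at sea level, which overlapped before normalisation, and with the central background the difference of -0.28 ± 0.10 did not pass (adjusted p = 0.255).

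Rgs4, Nefm and Sstr2 passed with 8 arrays and not in the 9-array neqc fit, where their limma adjusted p-values were 0.0732, 0.0679 and 0.273. Rgs4, a brake on G-protein signalling, gave 2748, 2997 and 3230 at 7 km, 4279, 4662 and 3781 at 3 km and 4316, 4288 and 2636 at sea level (-0.70 ± 0.13, limma adjusted p = 0.042, central background). Nefm, the middle neurofilament chain, gave 483, 402 and 416 at 7 km and 579, 547 and 418 at sea level (-0.67 ± 0.11, adjusted p = 0.0302). Sstr2, a somatostatin receptor, gave 448, 403 and 377 at 7 km and 600, 477 and 349 at sea level, and passed with 8 arrays under both corrections (adjusted p = 0.0422 with neqc and 0.0274 with the central background). For all 3 genes the replicate 3 signal fell within or below the 7 km range.

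Of 12 immediate early genes, none passed in limma. An unadjusted limma p below 0.05 was found for 4 of them, against 11.4 to 13.2% of all probes depending on the fit. Junb gave 2212, 1663 and 2144 at 7 km and 1454, 1055 and 393 at sea level, a difference of 0.59 ± 0.12 (limma adjusted p = 0.076, 8 arrays, central background; 0.255 with 9 arrays and neqc). Egr2 differed by 0.86 ± 0.25, Arc by 0.36 ± 0.16, Fos by 0.40 ± 0.31, Egr1 by -0.24 ± 0.23 and Bdnf by -0.64 ± 0.17. Of 14 astrocyte genes Mt1 passed, in the higher direction (0.339% of all probes), and the median was -0.01. Gjb6, the astrocyte connexin 30, gave 3936, 3792 and 3816 at 7 km and 2452, 1968 and 1224 at sea level without passing (0.66 ± 0.13, adjusted p = 0.067), while Gfap and Gja1 differed by -0.17 ± 0.14 and -0.06 ± 0.10.

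Further lower genes were called with no common list. Enoph1, an enzyme of methionine salvage, gave 664, 656 and 688 at 7 km, 908, 1053 and 740 at 3 km and 1028, 899 and 745 at sea level. It had no overlap and passed with 9 arrays (-0.62 ± 0.06, limma adjusted p = 0.0328), with 8 (-0.50 ± 0.04, adjusted p = 0.0215) and with 8 and the central background (-0.78 ± 0.11, adjusted p = 0.0142). Luzp1, a leucine zipper protein, gave 744, 614 and 679 at 7 km, 1000, 1165 and 924 at 3 km and 914, 786 and 597 at sea level, and passed in the same 3 fits (adjusted p = 0.0307, 0.0356 and 0.0427). Its signal on sea level replicate 3 lay below all 7 km signals before normalisation. Carhsp1, an RNA-binding phosphoprotein, gave 154, 164 and 158 at 7 km, 275, 340 and 229 at 3 km and 283, 230 and 229 at sea level. It was detected on no 7 km array and was at least 1.34-fold lower (adjusted p = 0.00914, 8 arrays, central background, and 0.103 with 9 arrays), with 3 km and sea level signals in one range.

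The remaining named calls came with 8 arrays in most cases. Crip2, a LIM-domain protein, gave 2767, 2405 and 2641 at 7 km and 1878, 1676 and 850 at sea level without overlap, and passed with neqc (0.74 ± 0.09, limma adjusted p = 0.0422) and not with the central background (adjusted p = 0.117). Ptp4a1, a tyrosine phosphatase, gave 1108, 1009 and 948 at 7 km and 1422, 1122 and 1171 at sea level, and likewise passed only with neqc (-0.52 ± 0.06, adjusted p = 0.0422). Lyzl4, a lysozyme-like gene, gave 401, 414 and 290 at 7 km and 752, 572 and 435 at sea level, and passed under both corrections (-1.26 ± 0.20 and adjusted p = 0.0244 with the central background). Tmem255b, a membrane protein, gave 455, 405 and 371 at 7 km and 228, 188 and 223 at sea level, and passed with the central background with 8 and 9 arrays (1.25 ± 0.15 and adjusted p = 0.00988 with 8).

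With 8 arrays and the central background alone, the calls also held Pla1a and Sigirr as higher and Acss2, Ampd3, Crhbp, Entpd2, Prkcq, Slc38a5 and Snrpa as lower. Acss2, which makes acetyl-CoA from acetate, gave 504, 465 and 424 at 7 km and 630, 582 and 522 at sea level (-0.67 ± 0.12, limma adjusted p = 0.0409). Crhbp, the binding protein of corticotropin-releasing hormone, gave 316, 298 and 260 at 7 km and 420, 368 and 415 at sea level (-0.84 ± 0.14, adjusted p = 0.0257). Neither overlapped between the groups. Sigirr was detected on no 7 km and no sea level array, so no fold is given for it.

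Sea level replicate 3 changed the size of many of these differences. Among the 51 named genes called with 8 arrays and the central background, Sult1a1, Bcat1, Tagln2, Brms1, Hsd11b1, Fdps, Tprn and Pcsk6 overlapped between 7 km and sea level once it was included. With neqc, 135 probes differed by more than 1 on the log2 scale with 9 arrays and 20 with 8. Prr13 shows the size of such a shift: its signals were 7181 to 8404 at 7 km and 6174 and 5312 on sea level replicates 1 and 2, but 256 on replicate 3. Its neqc difference was 1.87 ± 1.20 with 9 arrays (limma adjusted p = 0.43) and 0.25 ± 0.03 with 8 (adjusted p = 0.0422).

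**Figure D5:**
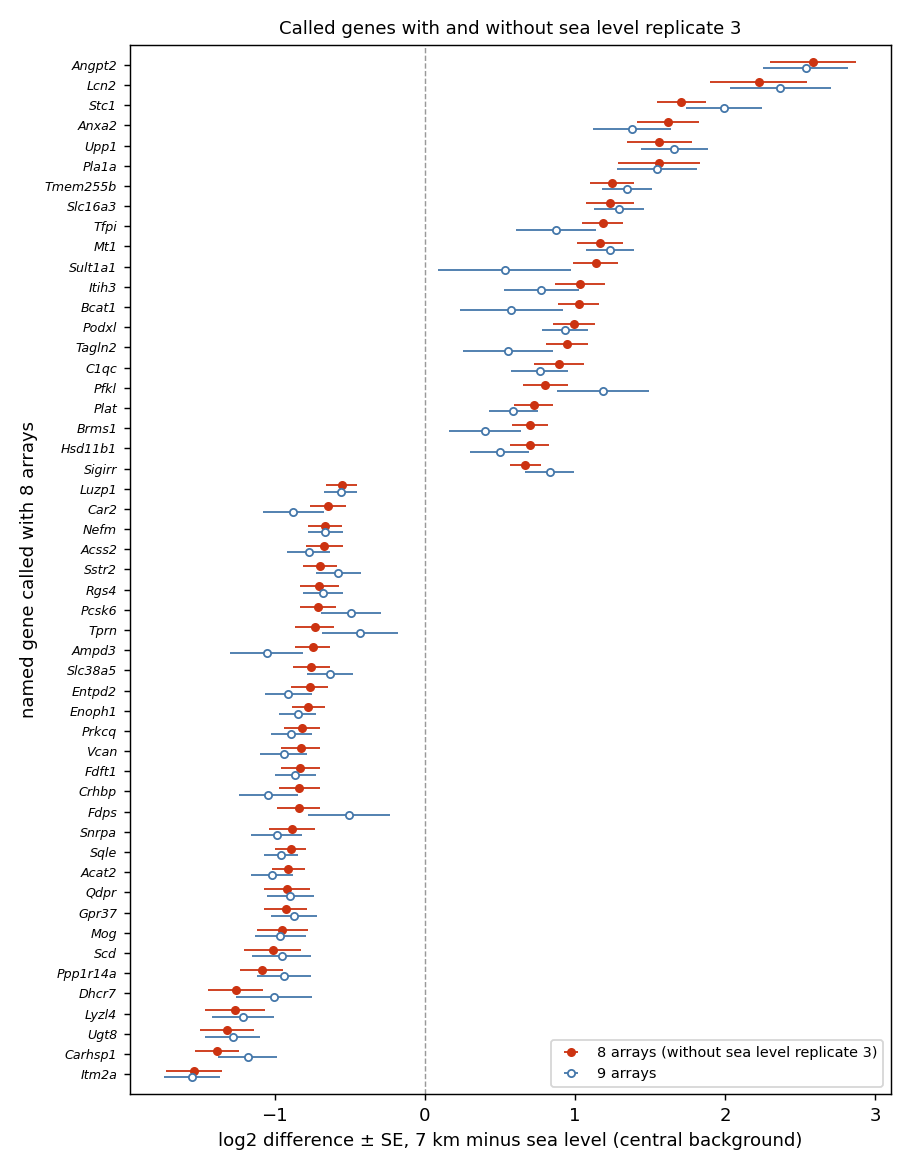
Log2 differences ± SE between 7 km and sea level of the 51 named genes called with 8 arrays and the central background (red), with the same genes fitted on all 9 arrays (blue, open). Standard errors widen with replicate 3 for Sult1a1, Bcat1, Tagln2, Tfpi and Pfkl, while the differences of Angpt2, Itm2a and Sqle move by less than 1 SE.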

How the data were processed

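The authors deposited a table of 1 signal (intensity) and 1 detection p-value per probe and array for 22523 probes, and a table of processed values (intensity) for 21675 probes whose method is not given in the sources used here. Total RNA was isolated with Trizol and treated with DNase I, and biotinylated cRNA was prepared for Illumina arrays, per the labels' protocols. No scanner, software or slide is named in the sources used here. Signals were corrected with neqc of limma 3.58.1 (R 4.3.3; offset 16, quantile normalisation, log2). Group means were fitted with limma over all arrays of a fit, and eBayes (no trend), with p-values adjusted by Benjamini-Hochberg across the tested probes, gave every adjusted p-value, called below 0.05; values after ± are its standard errors. The added central background used the same offset and normalisation. A probe undetected on all arrays of a group has its fold given as a bound against the higher of its own level and the lowest detected level of each array.

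The platform annotation names 1 gene for 13353 probes and none for 9170; 13313 matched RefSeq by gene ID. The brightest probe stood for a gene. Named genes were those called in either neqc fit, the 15 genes of smallest p-value without overlap per direction and fit, up to 6 members per list and a fixed set (Tfpi2, Hif1a, Epas1, Vegfa, Slc2a1, Hmox1, Stc1); genes called only with the central background, further list members and the promoters shown were picked after their values were seen. Genes and lists were chosen with earlier results of these data known. The fit was tested on simulated data. Replicate numbers were not taken to pair the arrays: deviations of same-numbered arrays correlated at 0.013 to 0.024 between 7 km and sea level, though at 0.085 to 0.305 between 3 km and sea level and 0.032 to 0.162 between 7 km and 3 km, and not every pair exceeded 0.1. Alternatives tried were leaving out arrays, no background correction, median scaling, other detection filters, the authors' table, a replicate block, array weights and an intensity trend.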

Additional observations from a re-analysis of the deposited data

How the results depend on the processing

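The calls depended on the arrays and settings used, and the cause was not tested. Leaving out 1 array at a time, the 8 calls of the 9-array neqc fit became 0 to 20, the 20 of the 8-array fit 0 to 10 and the 58 of the 8-array fit with the central background 0 to 55. In this order, fitting only the compared arrays gave 0, 0 and 7 calls, and the stricter detection filter gave 0, 20 and 17. Without the filter on dim probes there were 6, 6 and 29 calls, with array weights 176, 29 and 105 (their estimation did not fully converge), and with an intensity trend 3, 58 and 62. Median scaling gave 0, 2 and 54, and moved the median of all probes by -0.64 with 9 arrays. No background correction gave 11 calls with 9 arrays and 60 with 8 (55 shared with the central background), and in the authors' values there were 9 calls and 38 calls. The central background, its fits and all their alternatives were chosen after seeing the data.

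With replicate number as a block, the 3 fits gave 0, 3 and 31 calls. Each of the 3 arrays at 7 km correlated best with the sea level array of its own number, but only at 0.0138, 0.0131 and 0.0241. Sea level replicate 3 is among these arrays, and no pairing is concluded from the match. With array weights Rgs4, Nefm and Sstr2 passed also with 9 arrays (limma adjusted p = 0.0122, 0.00919 and 0.00919).

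Over the 3 fits and their alternatives, 2287 values of single genes kept direction and call, 605 lost and 252 gained the call, and 16 changed sign, all with 9 arrays. Under median scaling these were Anxa2 (-0.0606), Bcat1 (-0.50), Brms1 (-0.36), C1qc (-0.36), Crip2 (-0.26), Hsd11b1 (-0.31), Plat (-0.66), Podxl (-0.44), Sult1a1 (-0.45), Tagln2 (-0.23), Tfpi (-0.48), Tmem255b (-0.0110) and Vegfa (-0.38), all below the shift of the median of all probes in size except Plat. Tfpi was at -0.0203 in the authors' value table, and over leaving out each sea level array Sult1a1 ran from -0.00391 without replicate 1 to 0.0816 without replicate 3.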
